A study of Mus musculus with 18 samples.

Results

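Retinal cells that overexpressed Nmnat1 were compared directly with retinal cells that overexpressed Nmnat2, using 6 of the 18 libraries of the series and 2 of its 6 groups. The 3 libraries of each group were taken by their labels and not by any measured value. At postnatal day 0.5, retinas of ICR mice (an outbred stock) received by electroporation a plasmid for Nmnat1 or for Nmnat2 and, with it, an EGFP plasmid. The retinas were then kept as explants for 3 days. EGFP-positive cells were sorted, and mRNA was sequenced from full-length amplified cDNA. A further 3 libraries from retinas given the empty vector shared the fit and the background levels. The other 3 groups belong to a knockdown experiment and were not analysed here. The promoter of the plasmids, the number of retinas per library and whether libraries came from separate litters are not stated in the labels, so p-values measure only the spread between these libraries, which may be partly technical. The title of the library numbered 3 of the Nmnat2 group names Nmnat3, whereas its description and its plasmid label name Nmnat2.

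NMNAT enzymes join nicotinamide mononucleotide to ATP to make NAD, the last step of the salvage route on which most cells rely. NMNAT1 is the nuclear form and is needed for photoreceptor survival, with mutations of the human gene causing early blindness. NMNAT2 is a short-lived cytosolic and Golgi-associated form that protects axons, and NMNAT3 is the mitochondrial form. The 2-group comparison therefore sets a nuclear against a cytosolic enzyme of the same reaction in the same kind of sorted cell.

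Levels are given in ppm, parts per 1000000 of each library's column sum, a scale that already divides by transcript length. Differences are log2(ppm + 1), Nmnat1 minus Nmnat2, with the standard error (SE) of one limma fit over 9 libraries. The retinal identity of the cells was clear from Otx2, the regulator of photoreceptor and bipolar fate, at 1554 to 1774 ppm over the 6 libraries, and from the photoreceptor regulator Crx at 585.5 to 717.4 ppm. The libraries numbered 1 stood apart from the rest in each group. Pseudogenes took 10.4% of the column in Nmnat2 library 1 and 5.92% to 7.31% in the other 5 libraries, and 8 predicted genes of the Gm10800 kind took 5.6% there, 2.86% in Nmnat1 library 1 and at most 1.21% in the remaining 4. From single-read steps in the values, 1 ppm corresponded to 11.5 to 16.7 reads for a transcript of 1 kb effective length, and relative depth ran from 0.808 to 1.13 over the 9 libraries. The relative depth counts reads in single-transcript genes only, and by it the groups overlapped. Whether the pseudogene share of Nmnat2 library 1 affected it was not tested.

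Each transgene was raised in its own group and was far lower in the other, though above the empty vector level there. Nmnat1 (chromosome 4, 149467572 to 149485202, minus strand, GRCm38) stood at 27830, 15350 and 14800 ppm in the Nmnat1 libraries and at 39.4, 42.4 and 45.5 ppm in the Nmnat2 libraries. The empty vector libraries held 22.6, 18.7 and 21.3 ppm. Nmnat1 was thus 455.5-fold higher in its own group by the means, with a log2 difference of 8.74 ± 0.21 (SE; adjusted p = 5.26e-09, limma). Nmnat2 (chromosome 1, 152954993 to 153119261, plus strand, GRCm38) stood at 20910, 22820 and 21010 ppm in the Nmnat2 libraries and at 6.5, 3.12 and 6.08 ppm in the Nmnat1 libraries. With 2.71, 1.14 and 1.8 ppm in the empty vector libraries, it was 4123-fold higher in its own group, with a log2 difference of -11.81 ± 0.24 (SE; adjusted p = 2.1e-09, limma).

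The dose of the transgenes was of the same order. The mean of Nmnat1 in its group was 19330 ± 7372 ppm (SD, n = 3) and the mean of Nmnat2 in its group 21580 ± 1072 ppm (SD, n = 3), so together they took 1.48% to 2.78% of a library with the Nmnat1 plasmid and 2.1% to 2.29% of one with the Nmnat2 plasmid. Library 1 was the highest of the Nmnat1 group, and the groups did not overlap for either gene. For these single values the exact two-sided permutation test gave p = 0.1, the smallest that 3 against 3 libraries allow. Each partner gene also lay above the empty vector level, with Nmnat1 at log2 0.99 ± 0.21 (SE) over the vector in Nmnat2 libraries and Nmnat2 at 1.10 ± 0.24 (SE) over it in Nmnat1 libraries. Annotated transcripts of the pair share 1 identical run of 31 bases, and whether the partner's signal came from the cell's own gene, from that run or from another library was not tested. Nmnat3 (chromosome 9) was a low transcript, at 0.759, 1.43 and 0.15 ppm with Nmnat1 and 1.8, 0.767 and 0.42 ppm with Nmnat2, and it gave a log2 difference of -0.17 (95% interval -1.04 to 0.70).

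**Figure D1:**
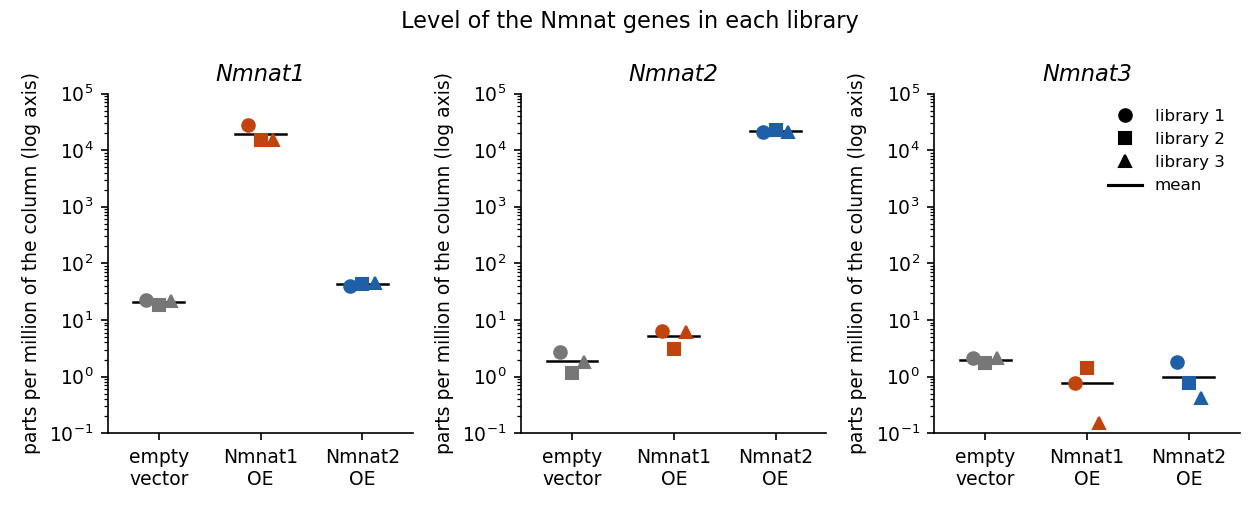
Levels of Nmnat1, Nmnat2 and Nmnat3 in the 9 libraries, in ppm on a log axis, with the 3 groups on the horizontal axis, 1 symbol per library number and a bar at each mean. Nmnat1 and Nmnat2 are high only in the group given that plasmid, and Nmnat3 is at most 2.17 ppm in each of the 9 libraries.

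Beyond the transgenes, few genes passed the threshold between the 2 groups. How many passed depended on the setting, with 38 genes, transgenes included, without the libraries numbered 1. Of 20725 genes tested, 4 passed an adjusted p of 0.05 (limma), which is 0.0193% of genes tested: Nmnat1 and the predicted gene Gm6563 were higher with Nmnat1, and Nmnat2 and Cyr61 were higher with Nmnat2 (0.00965% in each direction). At an unadjusted p of 0.05, 924 genes passed (4.46% of genes tested), 292 of them higher (1.41%) and 632 lower (3.05%) with Nmnat1. That split depended on the scaling, at 498 higher and 496 lower after median-of-ratios scaling and 487 higher and 422 lower after quantile normalization. The 4 calls were split evenly, and with median-of-ratios scaling or with the transgenes left out of the column sums they were 2 higher and 1 lower. The call lost in both settings was that of Cyr61 (adjusted p = 0.0845 and 0.0516, limma). The median gene differed by -0.05 on the log2 scale, and the middle 80% of genes lay between -0.63 and 0.26. Differences leaned positive with level: 42% of genes tested had a positive difference, against 73.7% of the 2134 genes with a mean of at least 100 ppm, whose median was 0.07. Without the libraries numbered 1 the median of all genes was -0.06. List medians between the 2 groups, where stated in the text, are given with and without these libraries. Medians against the vector include all libraries.

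Precision depended on the level. For the 7932 genes with at least 20 ppm in the higher group, the median half-width of the 95% interval was 0.33 on the log2 scale, and 39 of them differed by more than 1. The fit with the replicate number as a block also called 4 genes (0.0193% of genes tested), with Fos in place of Cyr61. A block over the 6 overexpression libraries alone called only Nmnat1 and Nmnat2.

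**Figure D2:**
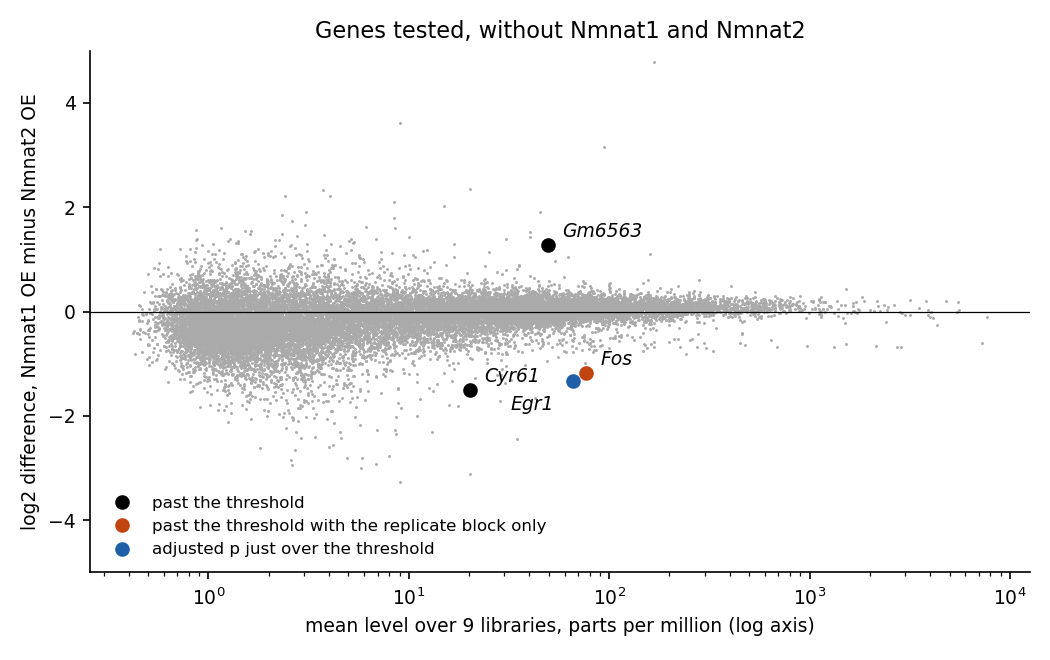
Log2 difference of each gene tested (vertical axis, Nmnat1 minus Nmnat2 overexpression) against its mean level over 9 libraries in ppm (log axis), with Nmnat1 and Nmnat2 left out because they lie beyond the axis. Most points lie close to 0; Cyr61, Egr1 and Fos lie below it by 1.51, 1.32 and 1.18, and Gm6563 above it by 1.28.

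Cyr61 and 3 immediate early genes were lower with Nmnat1 than with Nmnat2 in each pair of libraries. Immediate early genes are genes switched on within minutes of calcium, growth factor or stress signals, without new protein synthesis. Cyr61, also called Ccn1, encodes a secreted matrix-associated protein and is a well-known target of YAP and serum response factor. Its level was 12.8, 8.3 and 10.1 ppm with Nmnat1 and 25.7, 33 and 35.2 ppm with Nmnat2, on either side of the 17.3, 19.2 and 19.8 ppm of the empty vector. The groups did not overlap, and Cyr61 was 3.01-fold higher with Nmnat2, with a log2 difference of -1.51 ± 0.19 (SE; adjusted p = 0.048, limma). The value lies at the edge of the threshold: with the replicate block limma gave an adjusted p of 0.0791, and 14 of 24 alternative settings put it above 0.05. Leaving out any vector library, or library 2 or 3 of either overexpression group, was among these, with limma adjusted p values of 0.104 to 0.345.

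Egr1, a zinc finger transcription factor of the same response, had the same pattern at a higher level. It measured 46.3, 31.8 and 28.6 ppm with Nmnat1 and 86.8, 91.9 and 87.5 ppm with Nmnat2, against 63, 79.7 and 80.3 ppm with the empty vector. The Nmnat1 libraries were all below the vector and the Nmnat2 libraries all above it. The log2 difference of -1.32 ± 0.17 (SE) narrowly missed the threshold (adjusted p = 0.0518, limma). It passed in 7 of 24 alternative settings, among them the libraries without number 1 (adjusted p = 0.000895, limma), and it missed with the replicate block (adjusted p = 0.0831, limma).

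Fos, which encodes an AP-1 subunit, followed the library number as well as the group. It stood at 79.5, 37.1 and 36.9 ppm with Nmnat1, at 177, 80.7 and 93 ppm with Nmnat2 and at 88.3, 48.5 and 48.4 ppm with the empty vector. Library 1 was highest in each of the 3 groups, and each Nmnat2 library exceeded the Nmnat1 library of its number by 1.14, 1.10 and 1.31 on the log2 scale (written as Nmnat1 minus Nmnat2: -1.14, -1.10 and -1.31). The difference was -1.18 ± 0.37 (SE), which did not pass (adjusted p = 0.953, limma), whereas with the replicate block it was -1.18 ± 0.10 (SE) and passed (adjusted p = 0.00594, limma). Under the block over 6 libraries it missed (adjusted p = 0.0668, limma). The block treats libraries of the same number as matched, which was not shown for numbers 2 and 3.

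Dusp1, a phosphatase that shuts off MAP kinases, showed a smaller difference. Its levels were 38.8, 39.6 and 44.5 ppm with Nmnat1 and 52.2, 56.3 and 58 ppm with Nmnat2, without overlap, and the difference of -0.43 ± 0.13 (SE) did not pass (adjusted p = 0.953, limma). With the empty vector it stood at 34.8, 45.1 and 43.2 ppm. Set beside the vector, which both differences share, Nmnat1 gave Egr1 -1.06, Cyr61 -0.81, Fos -0.30 and Dusp1 0.00 on the log2 scale, and Nmnat2 gave 0.26, 0.70, 0.88 and 0.43. By these estimates Egr1 was mainly low with Nmnat1, Fos and Dusp1 mainly high with Nmnat2, and Cyr61 moved about equally in both. The SE against the vector was 0.17 for Egr1, 0.19 for Cyr61 and 0.37 for Fos, so the side is uncertain for Fos.

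The other early genes did not share the pattern. Of 15 genes on the immediate early list, 3 were lower in each Nmnat1 library than in any Nmnat2 library (Egr1, Dusp1 and Fos) and none was higher in each, beside 5.22% and 3.12% of all genes tested. The median of the list was -0.02 (-0.06 without the libraries numbered 1), beside -0.05 for all genes. Btg2, an antiproliferative gene, stood at 413.2 to 470.3 ppm over the 6 libraries with a difference of 0.03 ± 0.10 (SE), and Jun differed by -0.19 ± 0.19 (SE). Nr4a2, an orphan nuclear receptor, lay the other way at 1.10 ± 0.50 (SE), from levels under 8 ppm that overlapped. None of these passed.

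**Figure D3:**
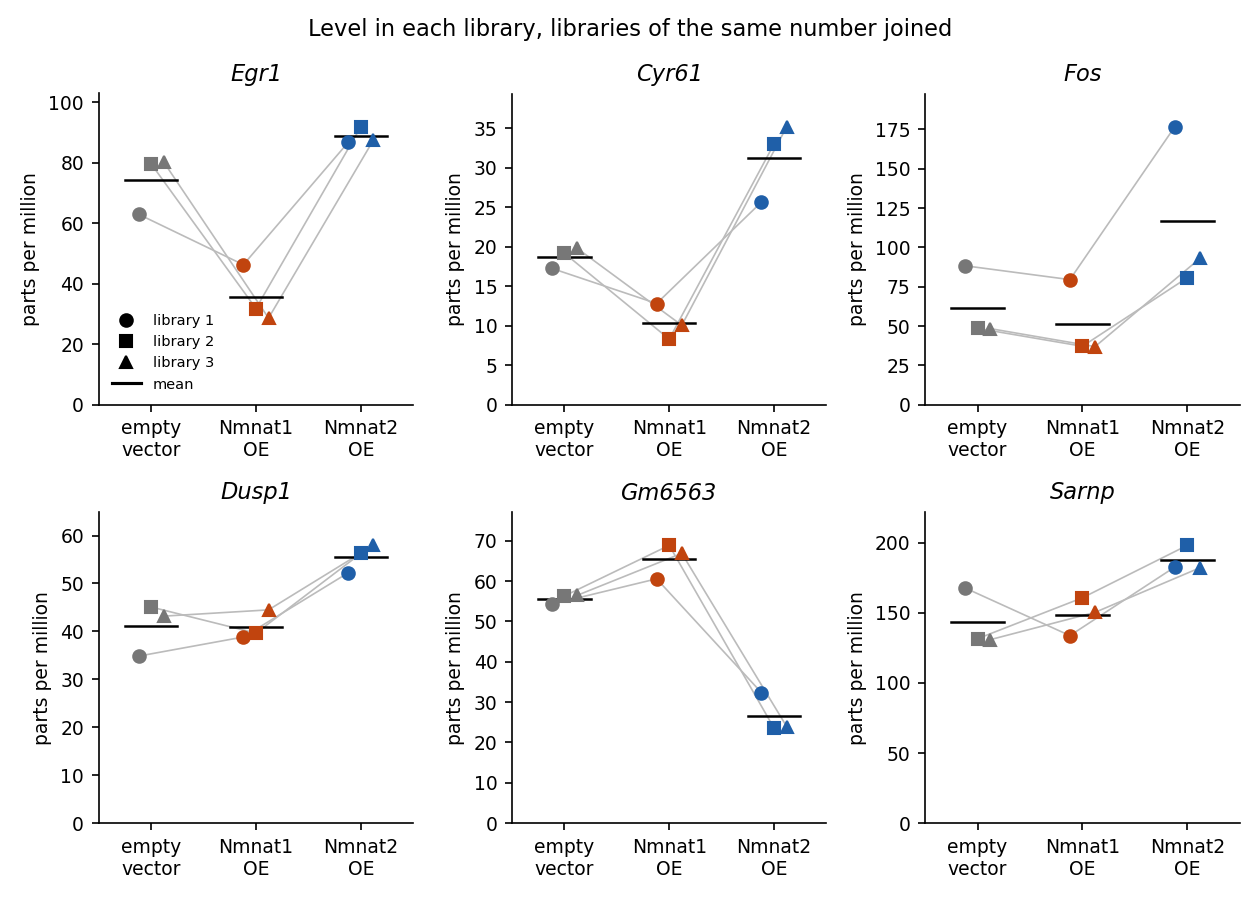
Levels in the 9 libraries in ppm (vertical axes from 0) for Egr1, Cyr61, Fos, Dusp1, Gm6563 and Sarnp by group, with a line joining libraries of the same number and a bar at each mean. In Egr1, Cyr61, Fos and Dusp1 the line rises from Nmnat1 to Nmnat2 for each of the 3 numbers; in Gm6563 it falls for each number and in Sarnp it rises.

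The upstream sequences of Fos, Dusp1 and Cyr61 are shown because these 3 genes lay lower with Nmnat1 in each library. Egr1 did so as well, but no upstream window was available for it, so it is missing from the comparison of sequences. Each is the 250 bases before the RefSeq start site (GRCm38.p6), written 5′ to 3′ on the gene's strand, with the letters TGACGT, the core of the cAMP response element, or their reverse complement in capitals. Fos lies at chr12:85473640-85473889 on the plus strand, Dusp1 at chr17:26508473-26508722 on the minus strand and Cyr61 at chr3:145649986-145650235 on the minus strand.
Fos: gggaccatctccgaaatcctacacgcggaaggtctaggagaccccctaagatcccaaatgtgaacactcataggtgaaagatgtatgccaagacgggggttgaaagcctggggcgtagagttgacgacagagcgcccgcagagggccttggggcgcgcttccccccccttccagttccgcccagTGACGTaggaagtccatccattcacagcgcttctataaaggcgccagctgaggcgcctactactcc
Dusp1: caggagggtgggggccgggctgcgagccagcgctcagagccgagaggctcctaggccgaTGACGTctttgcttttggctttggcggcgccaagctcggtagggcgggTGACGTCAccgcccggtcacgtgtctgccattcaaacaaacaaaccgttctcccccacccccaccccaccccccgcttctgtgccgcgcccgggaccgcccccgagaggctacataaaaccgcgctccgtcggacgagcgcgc
Cyr61: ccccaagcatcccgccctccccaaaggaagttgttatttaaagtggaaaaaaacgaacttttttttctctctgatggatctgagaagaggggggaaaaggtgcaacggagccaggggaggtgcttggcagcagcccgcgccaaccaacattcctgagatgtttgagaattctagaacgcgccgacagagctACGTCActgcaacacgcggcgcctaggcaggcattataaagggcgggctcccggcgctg
The Fos window holds the letters once, starting 66 bases before the start site, and the Cyr61 window holds them once on the reverse strand, 59 bases before it. The Dusp1 window holds 3 matches, of which the one on the reverse strand overlaps one on the forward strand. On either strand the letters occur in 6.47% of the 32851 such windows read. They are not particular to the genes that differed: 5 of the 12 tested early genes with a window hold them, among them Btg2 and Atf3, which differed by 0.03 and -0.02. The CArG box, bound by serum response factor, occurs in 1.47% of the windows and in none of these 3. Only these 250 bases were read, so a site further upstream would be missed. A match of letters is a description and shows no binding.

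Gm6563, the other gene past the threshold, was chosen for mention after its values were seen, since the naming rule leaves out predicted genes. It measured 60.6, 68.9 and 66.9 ppm with Nmnat1 and 32.4, 23.6 and 24 ppm with Nmnat2, with 54.3, 56.3 and 56.5 ppm in the empty vector. The difference was 1.28 ± 0.14 (SE; adjusted p = 0.0145, limma), with the change lying on the Nmnat2 side. The deposited table types it as protein coding, whereas GENCODE M21 lists a processed pseudogene at chromosome 19, 23675848 to 23676480, and its 633 bases are 99.84% identical to a transcript of Sarnp, an RNA export factor. Sarnp lay the other way, at 133.8, 160.8 and 150.4 ppm with Nmnat1 and 182.7, 198.2 and 182.2 ppm with Nmnat2. The sum of the pair overlapped between the groups, at 194.4, 229.7 and 217.3 ppm against 215.1, 221.7 and 206.2 ppm. How reads were divided between the near-identical copies is uncertain, so the call of Gm6563 is uncertain as well. With the replicate block over 6 libraries it was lost (adjusted p = 0.163, limma), as it was without any vector library or library 2 or 3 of either overexpression group (adjusted p of 0.0543 to 0.126, limma).

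No tested gene of NAD metabolism other than the transgenes passed. Of 18 tested genes for NAD synthesis and salvage, the transgenes were the only members past the threshold. The list median was -0.14 (-0.04 without the libraries numbered 1). Nampt, a salvage gene of the list, was not found by name among the deposited genes and Haao lay under the filter, so neither was tested. Afmid, a kynurenine pathway formamidase, stood at 3.15, 4.87 and 5.17 ppm with Nmnat1 and 2.39, 1.13 and 2.12 ppm with Nmnat2, without overlap, and its difference of 0.91 ± 0.33 (SE) did not pass (adjusted p = 0.953, limma). Nmrk1, the nicotinamide riboside kinase that feeds NMN to these enzymes, lay lower with Nmnat1 at 9.15, 9.05 and 7.75 ppm against 16, 10.6 and 9.34 ppm, a difference of -0.40 ± 0.22 (SE).

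None of 23 NAD-consuming enzymes passed, and their differences ran from -0.35 to 0.20 with a median of -0.06 (-0.04 without the libraries numbered 1). Sirt1, the nuclear deacetylase, differed by -0.19 ± 0.16 (SE), and Sirt2, its cytosolic relative, by 0.20 ± 0.14 (SE). Parp1, the main nuclear consumer of NAD after DNA damage, stood at 102, 86.8 and 89.1 ppm with Nmnat1 and 72.9, 105 and 105.8 ppm with Nmnat2. Its interval of -0.35 to 0.33 leaves room for differences of that size. Sarm1, the NAD hydrolase whose activation NMNAT2 restrains in axons, stood at 34.9, 34.5 and 41.4 ppm against 22.2, 39.9 and 37.9 ppm, with a difference of 0.18 (95% interval -0.27 to 0.64). Of 18 genes of axon degeneration none passed and none was without overlap. Stmn2, an axonal tubulin-binding protein lost after injury, differed by 0.36 ± 0.23 (SE), and Mapk10, the neuronal JNK, by -0.50 ± 0.32 (SE).

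Rod and cone genes lay mostly below the empty vector in both groups, and none passed between them. The rod list of 26 genes had a median of -0.74 against the vector with Nmnat1 and -0.79 with Nmnat2, 2 values that share the vector libraries. Its summed level was 9990, 6065 and 5972 ppm with Nmnat1, 7790, 5659 and 5574 ppm with Nmnat2 and 11010 to 11520 ppm with the vector. Library 1 was the highest of each overexpression group. Between the 2 groups the rod median was 0.13, beside -0.05 for all genes, and no rod gene passed or was without overlap. Without the libraries numbered 1 the rod median was 0.01. The list of 15 regulators of photoreceptor precursors stayed near the vector, with medians of 0.01 with Nmnat1 and -0.03 with Nmnat2, and its median between the 2 groups was 0.09 (-0.01 without the libraries numbered 1). In sorted bulk RNA, fewer cells of a type and less RNA per cell cannot be told apart.

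Single rod genes did not pass in the fit of 9 libraries, though Pdc did without the libraries numbered 1. Nrl, the leucine zipper factor that sets rod fate, differed by 0.06 (95% interval -0.30 to 0.42). Nr2e3, its partner that represses cone genes, differed by 0.20 (95% interval -0.26 to 0.67), with 1302 ppm in Nmnat1 library 1 and 689.8 to 857.5 ppm in the other 5. Pdc, phosducin, which binds transducin beta-gamma, was higher with Nmnat1 within each number, by 0.29, 0.53 and 0.48, and did not pass (adjusted p = 0.953, limma). Without the libraries numbered 1 its difference was 0.50 ± 0.04 (SE) and passed (adjusted p = 0.00692, limma).

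Cone genes mostly had positive differences, 12 of 16, and none passed. Of 16 cone genes tested, 5 were higher in each Nmnat1 library than in any Nmnat2 library and none was lower in each, beside 3.12% and 5.22% of all genes tested. The list median was 0.23, and without the libraries numbered 1 it was 0.04. Pde6h, the inhibitory subunit of the cone phosphodiesterase, measured 6.27, 2.72 and 4.96 ppm with Nmnat1 and 2.57, 0.342 and 0.857 ppm with Nmnat2, against 7.4, 17.6 and 19.1 ppm with the vector. Its difference was 1.39 ± 0.46 (SE). Cngb3, a subunit of the cone cation channel, differed by 0.37 ± 0.17 (SE), and Gnb3, the cone transducin beta subunit, by 0.23 ± 0.11 (SE). Ccdc136 stood at 296.3, 259.5 and 273.6 ppm against 234.3, 227.1 and 239.7 ppm, a difference of 0.24 ± 0.09 (SE). Opn1sw, the short-wave cone opsin, overlapped, at 111.8, 85.2 and 75.5 ppm against 61.7, 83.9 and 90.6 ppm. The summed cone level was 2799, 2097 and 2134 ppm with Nmnat1 and 1897, 1961 and 2061 ppm with Nmnat2, so that library 1 gave most of the gap, and the part of library composition in it was not tested.

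**Figure D4:**
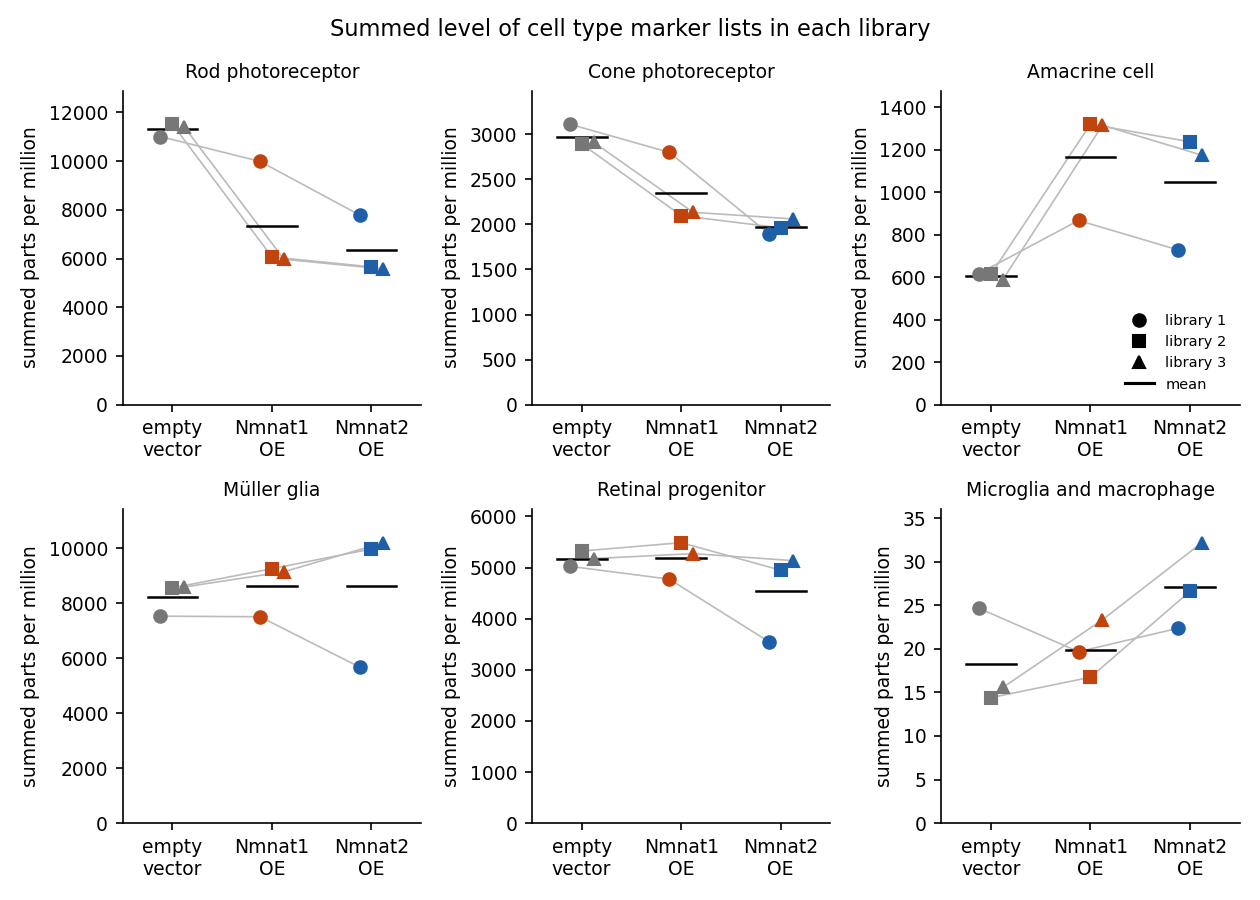
Summed level of 6 marker lists in each of the 9 libraries, in ppm (vertical axes from 0), by group, with lines joining libraries of the same number and bars at the means. Rod and cone sums are lower and amacrine sums higher in both overexpression groups than with the vector, and libraries numbered 1 lie apart from numbers 2 and 3 in most panels.

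Amacrine genes lay above the vector, again in both groups. The amacrine list of 20 genes had a median of 1.26 over the vector with Nmnat1 and 1.01 with Nmnat2, from the same vector libraries, and 0.15 between the 2 (0.12 without the libraries numbered 1). Gad2, the GABA-synthesizing enzyme of amacrine cells, stood at 32.2, 85.5 and 81.6 ppm with Nmnat1 and 23.4, 52 and 44.2 ppm with Nmnat2, beside 12.7 to 15 ppm with the vector. The groups overlapped through library 1, and the difference of 0.67 ± 0.37 (SE) did not pass. Calb2, calretinin, differed by 0.22 (95% interval -0.31 to 0.74). Neurod6, a factor of a glycine- and GABA-negative amacrine type, lay lower with Nmnat1 without overlap, by 0.71 on the log2 scale (-0.71 ± 0.30 SE), at levels under 4.2 ppm.

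Among progenitor and glial genes only Cyr61 passed. Of 25 progenitor genes, 1 was higher in each Nmnat1 library, which is 4% beside 3.12% of all genes tested. It was Fabp7, a lipid-binding protein of progenitors and glia, at 2023, 1800 and 1770 ppm against 1413, 1513 and 1657 ppm, a difference of 0.29 ± 0.10 (SE) that did not pass. Rax, the eye field homeobox gene, stood at 509.3, 639.5 and 580.5 ppm against 330, 498.1 and 521.1 ppm. Among 24 Müller glia genes Cyr61 was the only one past the threshold, and the list median was 0.04 (-0.15 without the libraries numbered 1). The glial sum overlapped, at 7506 to 9253 ppm with Nmnat1 and 5677 to 10200 ppm with Nmnat2. Bipolar, horizontal and ganglion cell lists had medians of -0.04, -0.27 and -0.01 (-0.12, -0.08 and -0.02 without the libraries numbered 1), with no gene past the threshold. Of 8 microglial genes none passed, and their summed level was 16.7 to 23.3 ppm with Nmnat1 and 22.4 to 32.2 ppm with Nmnat2. None of the 10 endothelial, 7 astrocyte, 10 pigment epithelium and 7 lens genes tested passed either.

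The nuclear genes of the respiratory chain gave small differences, mostly positive, as did abundant genes in general. Of 33 subunits, 29 had a positive difference and 5 were higher in each Nmnat1 library, beside 3.12% of all genes tested, and none passed. The median was 0.07 (0.08 without the libraries numbered 1), and the widest difference was 0.21. With all libraries included, genes of at least 100 ppm also had a median of 0.07, which was not computed without the libraries numbered 1. Cox8a stood at 1013, 979.5 and 925.1 ppm with Nmnat1 and 798.6, 842.7 and 888.3 ppm with Nmnat2, both below the 1171 to 1301 ppm of the vector. Cox6a1 differed by 0.19 ± 0.09 (SE) and Ndufb8, a subunit of complex I, by 0.18 ± 0.10 (SE). The 13 mitochondrially encoded mRNAs had a median of -0.06, which was 0.04 without the libraries numbered 1. Of these, mt-Nd3 lay lower with Nmnat1 at 195.2, 210.6 and 202.9 ppm against 444.3, 258.5 and 230.7 ppm, and the highest value came from Nmnat2 library 1. Glycolysis genes had a median of 0.08 and TCA cycle genes 0.06, values that rested on the libraries numbered 1 and were -0.03 and 0.01 without them. Pkm, pyruvate kinase, stood at 1658, 1724 and 1728 ppm with Nmnat1 against 1328, 1599 and 1560 ppm, without overlap and without passing.

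Ribosomal and proteasome genes gave small differences, mostly positive. Of 44 cytosolic ribosomal protein genes 36 had a positive difference, the median was 0.12 (0.06 without the libraries numbered 1), none passed and none was without overlap. Of 31 proteasome subunits 26 were positive with a median of 0.07 (0.05 without the libraries numbered 1), and 1 was without overlap, Psmd8 at 0.17 ± 0.10 (SE), a share of 3.23% beside 3.12% of all genes tested. With all libraries included, abundant genes in general leaned the same way. Cholesterol and fatty acid synthesis genes had a median of -0.02 (-0.08 without the libraries numbered 1). Dhcr7, the last enzyme of cholesterol synthesis, stood at 40.4, 40.8 and 39.4 ppm with Nmnat1 and 51.6, 53 and 47.8 ppm with Nmnat2, a difference of -0.33 ± 0.14 (SE) that did not pass.

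Genes of p53, cell death and stress did not pass either. Of 26 p53 targets, 3 were higher and 1 lower in each Nmnat1 library than in any Nmnat2 library, beside 3.12% and 5.22% of all genes tested, with a median of -0.01 (-0.09 without the libraries numbered 1). Cdkn1a, the p21 inhibitor of cyclin-dependent kinases, stood at 28.1, 25.4 and 20.2 ppm with Nmnat1 and 15, 18.1 and 15.8 ppm with Nmnat2, and at 26.7 to 34.2 ppm with the vector. Its groups did not overlap, and the difference was 0.56 ± 0.17 (SE; adjusted p = 0.953, limma). Bax, the pore-forming death effector, stood at 213, 221.5 and 226.1 ppm against 141.1, 211.2 and 197.4 ppm, where Nmnat2 library 1 was the lowest. Of 19 Bcl2 family genes and their partners none passed, with a median of 0.05 (-0.04 without the libraries numbered 1). Apaf1, the scaffold of the apoptosome, differed by -0.42 ± 0.21 (SE).

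Of 18 heat shock genes, which encode chaperones that refold proteins, 16 had a positive difference and 3 were higher in each Nmnat1 library, beside 3.12% of all genes tested. The median was 0.09 (0.08 without the libraries numbered 1). With all libraries included, abundant genes in general also leaned positive, with a median of 0.07 for those of at least 100 ppm. Their median without the libraries numbered 1 was not computed. Hsp90aa1, the inducible cytosolic HSP90, stood at 950.2, 907 and 838.1 ppm with Nmnat1 and 674.7, 768.9 and 802.9 ppm with Nmnat2, with 753.3 to 963.2 ppm in the vector. Hsph1, a nucleotide exchange factor for HSP70, differed by 0.24 ± 0.12 (SE), and Hsf1, the master regulator, by 0.50 ± 0.20 (SE) with overlap. The unfolded protein and integrated stress list of 24 genes had a median of -0.05, which was -0.22 without the libraries numbered 1. Its Xbp1, the spliced effector of IRE1, differed by -0.34 ± 0.14 (SE), and Ddit4, an inhibitor of mTOR, by 0.25 ± 0.12 (SE). In the antioxidant list Slc7a11, the cystine transporter, differed by -0.72 ± 0.40 (SE), with its highest value of 26 ppm in Nmnat2 library 1. Irf1, an interferon-induced factor, stood at 11.7, 8.61 and 9.67 ppm against 7.78, 5.01 and 8.16 ppm, without passing.

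**Figure D5:**
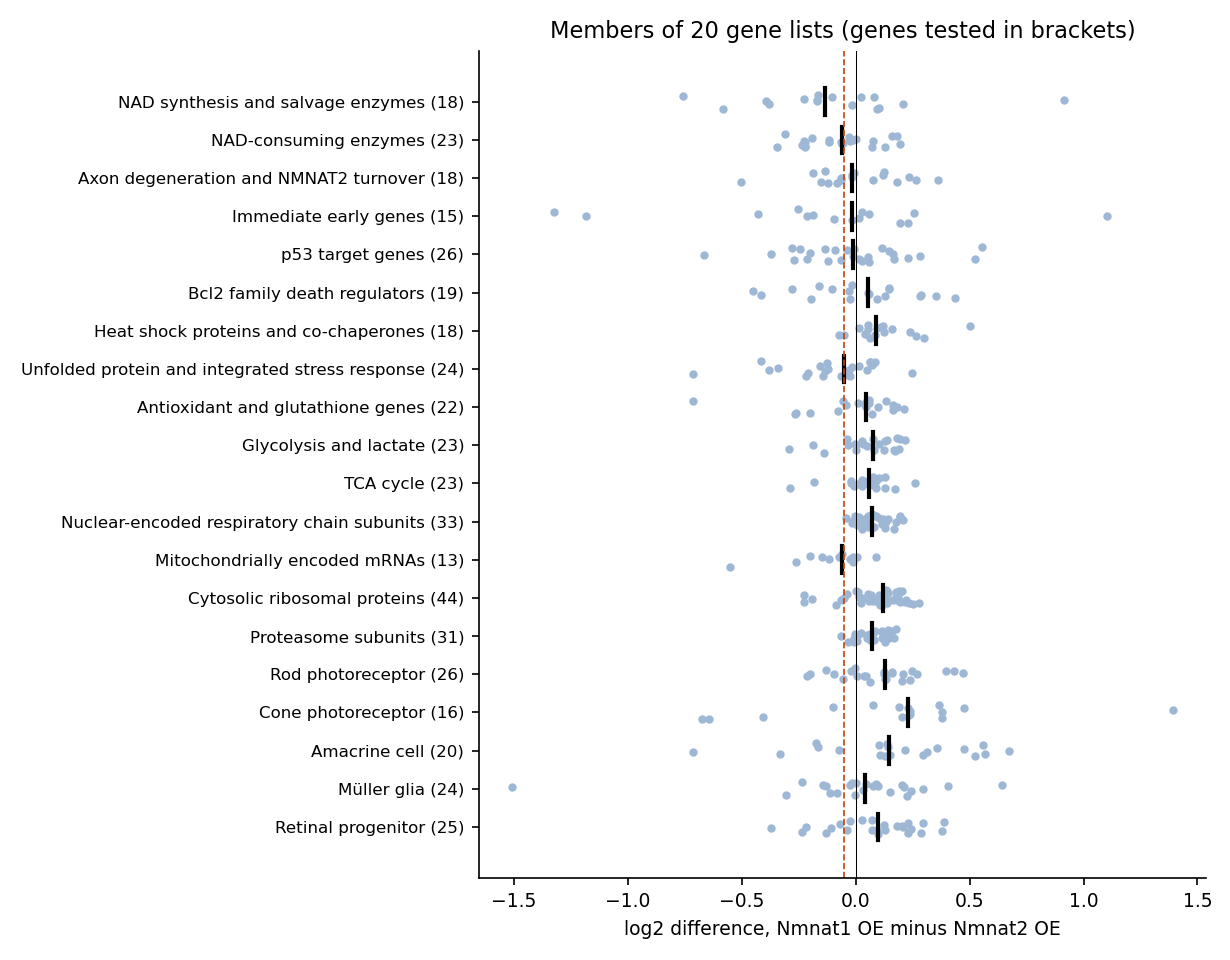
Log2 difference, Nmnat1 minus Nmnat2 overexpression (horizontal axis), of the tested members of 20 gene lists, 1 point per gene, with the black bar at the list median, the dashed line at the median of all genes (-0.05) and Nmnat1 and Nmnat2 left out of the points. List medians lie between -0.14 and 0.23, and single genes such as Egr1 and Pde6h lie beyond 1 in either direction.

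No proliferation gene passed. Of 33 genes of G2 and M phase 2 were higher and 2 lower in each Nmnat1 library, with a median of -0.01 (0.16 without the libraries numbered 1), and of 30 S phase genes 1 was higher and 2 lower, with a median of -0.06 (0.03 without the libraries numbered 1). These counts are near the 3.12% higher and 5.22% lower of all genes tested. Ect2, a cytokinesis exchange factor, differed by -0.84 ± 0.38 (SE), and Mcm3, part of the replicative helicase, by -0.50 ± 0.26 (SE), both at levels under 11 ppm. Cdk2, the S phase kinase, differed by -0.62 ± 0.28 (SE).

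Outside the lists, the genes with the smallest unadjusted p are given as values, since none passed in the fit of 9 libraries. Acot1, Pttg1 and Fam89a passed with array weights (adjusted p = 0.00532, 0.00612 and 0.0295, limma) and without the libraries numbered 1 (adjusted p = 0.0227, 0.0336 and 0.0336, limma). Pttg1 also passed without Nmnat2 library 1 (adjusted p = 0.0497, limma). Psmc3ip, a cofactor of meiotic recombination, stood at 39.8, 26.1 and 36.8 ppm with Nmnat1 and 13, 16.6 and 14.8 ppm with Nmnat2, a difference of 1.14 ± 0.19 (SE; adjusted p = 0.237, limma). Part of its transcripts is identical to Mlx over 385 bases. Pttg1, securin, lay higher with Nmnat1 within each number, by 0.53, 1.53 and 1.85, with a difference of 1.30 ± 0.24 (SE; adjusted p = 0.337, limma). Sirpa, the receptor for the CD47 signal, differed by 0.58 ± 0.12 (SE), Nfkbia, the inhibitor of NF-kappa-B, by 0.44 ± 0.11 (SE) and Rab5b, an early endosome GTPase, by 0.50 ± 0.12 (SE). A stretch of 648 bases of Rab5b is 99.38% identical to the predicted gene Gm13991, so reads may be shared. Usp16, a histone H2A deubiquitinase, differed by 0.50 ± 0.12 (SE), and Fam89a, Tmem242 and Lrtm2 by 0.55, 0.50 and 0.88.

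On the Nmnat2 side, Acot1, a cytosolic acyl-CoA thioesterase, stood at 16.2, 6.6 and 12.2 ppm with Nmnat1 and 23.4, 47.1 and 52.3 ppm with Nmnat2, beside 29.4 to 37.4 ppm with the vector. Its difference was -1.72 ± 0.33 (SE; adjusted p = 0.379, limma), and 669 of its bases are 97.31% identical to Acot2, so reads may be shared. Cyp7a1, the rate-limiting enzyme of bile acid synthesis, differed by -2.03 ± 0.45 (SE) within each number (-1.26, -3.03 and -1.80). Birc2, an inhibitor of apoptosis that ubiquitinates RIPK1, differed by -0.44 ± 0.10 (SE), and Rnf31, the catalytic part of the linear ubiquitin ligase, by -0.56 ± 0.16 (SE). Ppil3, a spliceosomal cyclophilin, differed by -0.38 ± 0.11 (SE), and Zfp709 and the olfactory receptor gene Olfr1178 by -0.87 and -2.32.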

How the data were processed

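The authors deposited 1 table of length-scaled signal values per gene for the 9 overexpression libraries. Its columns are called TPM but sum to between 17.4 and 26.2 times 1000000. The submitters' processing notes name Salmon 0.11.3, sleuth 0.30.0 and the build GRCm38.p6, without saying which made the table. The cDNA kit does not mark strand. An incomplete last line was left out, which left 34396 genes, and 99.9% of their identifiers were found in GENCODE M21.

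Each column was divided by its sum and multiplied to ppm. Genes reaching 1 ppm in 3 or more of the 9 libraries were tested on log2(ppm + 1) with limma 3.58.1 (R 4.3.3), 3 groups in 1 fit, a mean-variance trend and Benjamini-Hochberg adjustment at 0.05. The pseudocount understates the change of low genes. Values were near whole multiples of 1 read for 79.7% to 84% of low values in single-transcript genes (tolerance 0.1), too few to recover read counts, so no test of counts was made. For the Nmnat genes alone, an exact permutation test over libraries was added. "No overlap" means that each library of 1 group lay above each library of the other.

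Replicate numbers come from the labels. Deviations from the group means correlated between the Nmnat1 and Nmnat2 libraries of the same number (r = 0.461, 0.285 and 0.139). Different numbers gave similar values, at r = 0.242 for Nmnat1 library 2 with Nmnat2 library 3. Nmnat1 library 3 with Nmnat2 library 2 gave 0.165. Number 1 of either group correlated negatively with numbers 2 and 3 of the other. The libraries numbered 1 were thus set apart, but a pairing of numbers 2 and 3 was not shown. With the vector library numbered 3 the correlations were 0.0664 and 0.0271. The block was therefore fitted over 9 and over 6 libraries, as an alternative only.

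The comparison, its members and the 37 gene lists were chosen with earlier results of these data known. Named genes were the Nmnat genes, genes past the threshold at 5 ppm or more, the smallest p values up to 10 per direction, genes past it with the block only, and up to 4 members per list by smallest p, without predicted or pseudogene names. Sarm1, Calb2, Sarnp, Gm6563, Parp1, Nrl, Nr2e3, Crx, Otx2, Opn1sw, Btg2, Atf3 and Jun were added after values were seen. Upstream windows came from RefSeq, where Cyr61 is listed as Ccn1. Near-identical transcripts were found with blastn 2.17.0.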

Additional observations from a re-analysis of the deposited data

How the results depend on the processing

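Nmnat1 and Nmnat2 kept their direction and their call in the 24 alternative settings, with log2 differences of 8.39 to 8.90 and -11.98 to -11.06. The count of 4 genes moved to 25 with array weights, to 2 with only the 6 overexpression libraries, to 38 without all libraries numbered 1 (19 higher and 19 lower) and to 7 with protein-coding genes only, an alternative added after seeing the data. Leaving out 1 library at a time gave 2 to 11 genes, with 9 without Nmnat1 library 1 and 11 without Nmnat2 library 1. With the replicate block over 9 libraries it was 4, with the block over the 6 libraries 2, and with the block and protein-coding genes only 10. The block over 9 libraries took the call of Cyr61 and gave that of Fos; that over 6 libraries took those of Cyr61 and Gm6563, and neither changed another call among the named genes. Cyr61 had adjusted p values of 0.000613 to 0.345 (limma) over the settings and lost its call in 14 of 24; Gm6563 had 5.81e-05 to 0.264 and lost it in 10. Fos passed in 3 of 24. Cyr61, Gm6563, Fos and Egr1 kept their sign in the 24 settings. Nmnat3 turned positive with quantile normalization (0.144), array weights (0.052), without Nmnat1 library 3 or Nmnat2 library 1 (0.102 to 0.11) and without all libraries numbered 1 (0.077). Sarm1 turned negative with array weights (-0.003), without Nmnat2 library 1 (-0.078) and without all libraries numbered 1 (-0.04), and Calb2 without Nmnat2 library 1 (-0.065). Over the settings that left out 1 library, Nmnat3 ran from -0.428 to 0.11, Sarm1 from -0.078 to 0.332 and Calb2 from -0.065 to 0.392. The cause was not tested. Below about 20 ppm the intervals are wide, so that a difference of less than 1 on the log2 scale was often not detectable. Above that level some larger differences also missed the threshold, as with Acot1 (-1.72, adjusted p = 0.379, limma) and Fos (-1.18, adjusted p = 0.953, limma). A gene that did not pass is therefore not shown to be unchanged.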

Other observations

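Without the libraries numbered 1, 38 genes passed, among them genes whose level differed several-fold between library 1 and libraries 2 and 3 of the same group. Tuba1c, an alpha-tubulin gene, stood at 10 and 10.2 ppm in Nmnat1 libraries 2 and 3 and at 50 ppm in Nmnat1 library 1, beside 49.7 to 65.1 ppm with Nmnat2. The pseudogene RP23-392I3.13 was listed at 0 in Nmnat2 libraries 2 and 3, whereas it stood at 229.7 ppm in Nmnat2 library 1 and at 156.5 to 177.4 ppm with Nmnat1. AC026478.1, another pseudogene, stood at 1.1 and 3 ppm in the same 2 libraries and at 165.2 ppm in library 1. These genes were chosen after their values were seen.

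Genes of the Y chromosome differed between libraries of the same group with Nmnat1 and with the empty vector. Ddx3y, an RNA helicase gene of the Y chromosome, stood at 12.4, 52.8 and 54.1 ppm with Nmnat1, 19.7, 17.4 and 18.6 ppm with Nmnat2 and 13.4, 44.2 and 42.7 ppm with the empty vector. Eif2s3y, a translation factor gene beside it, stood at 15.9, 121.9 and 132.4 ppm with Nmnat1 and 39.7, 57.2 and 43.1 ppm with Nmnat2. Without the libraries numbered 1, 3 of the 4 sex-linked genes tested passed, all higher with Nmnat1, beside 38 of all 20725 genes tested. The 4 genes lie on the Y chromosome, and Xist was not found by name among the deposited genes. ICR mice are outbred, the labels do not name the animals in each library, and the share of male cells or the animals' genotype cannot be told apart from the plasmid in these libraries.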
